A study of Mus musculus with 8 samples.

Results

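The genes described here build and steer the actin cytoskeleton of a B cell: 44 genes chosen by name, with earlier results of these data known. They are made up of actin itself, the proteins that bind, cut, cap or branch its filaments, the small GTPases and kinases that direct them, myosins, and adaptors at the membrane. They were followed in A20 cells, a mouse B lymphoma line of mature B cell type. All 44 had probes on the array, and 43 of them were among the 19973 gene names tested. The exception was Rdx, which encodes radixin, a linker of actin to the plasma membrane, and its 2 probes were not well above background on any array.

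The samples came from 4 lines with 2 arrays each, 8 arrays in all: an IgE+ stable transfectant called clone 18, a second IgE+ stable transfectant called clone 41, an IgM+ stable transfectant, and untransfected A20 cells. Below, the 2 clones are the IgE lines, and the IgM+ and untransfected lines are the control lines. All lines grew in RPMI1640 medium with 10% serum and 50 µM beta-mercaptoethanol. The labels name no drug and no time in culture for any line, so whether the lines differed in either is not known. Each IgE line is 1 clone, and the labels name neither the construct nor its promoter. Nothing states whether the paired arrays of a line hold RNA of different cultures. The p-values therefore cover the spread between these arrays alone, and that spread could be purely technical. Levels are given as scaled log2 signals, the log2 signal of a probe minus that of the array's 75th percentile probe, and levels of different genes are not compared because each probe has its own brightness. A gene was called when its change was at least 2-fold with a Benjamini-Hochberg adjusted p under 0.05 in a limma fit over all genes tested.

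Actin filaments grow from monomers that thymosins and profilin hold in reserve, branch at the Arp2/3 complex, and are taken apart by cofilin and gelsolin. Small GTPases such as Rac and Cdc42, switched on by exchange factors such as the DOCK proteins, decide where this happens. In B cells the actin layer under the membrane limits the movement of the antigen receptor, and its rapid remodelling accompanies receptor signalling, spreading and migration.

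The labels describe lymphocytes, and all 8 B cell marker genes examined were well above background on all 8 arrays. Their summed signal, in multiples of the 75th percentile probe, was 341 to 390 on IgE arrays and 359 to 460 on control arrays. The sum over the 7 T cell markers tested of 9 was 5.06 to 6.19 on IgE arrays and 4.69 to 6.35 on control arrays, and 1 of them, Cd3g, was called lower. The sum over the 7 myeloid markers tested of 12 was 52.6 to 73.8 on IgE arrays and 46.2 to 59.5 on control arrays. Of these, Cd68 and Fcgr3 were called higher and Emr1 and Ly6g lower. The 2 fibroblast markers tested of 6, Col1a2 and Pdgfrb, summed to 0.0707 to 0.167 on IgE arrays and 0.111 to 0.281 on control arrays. The part of these markers in the results below was not tested.

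In the IgE lines a few members had large changes and most were not called, as among all genes. Of the 43 genes tested, 5 were called, against 8.99% of all genes tested. Basp1 and Tmsb10 rose, against 3.4% of all genes called higher. Nedd9, Cotl1 and Dock10 fell, against 5.59% of all genes called lower. The median log2 change of the 43 genes was -0.00, and that of all genes was 0.04. In 14 of the 43 the change was under 0.1 on the log2 scale in either direction, and the share of all genes under that limit was not counted. The unadjusted limma p was under 0.05 for 13 of the 43 members and for 6904 of all 19973 genes. Because the list was chosen with earlier results of these data known, these shares give a setting and are not a test.

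The probes that read the main changes are shown here because every statement on these genes rests on 1 or a few such oligonucleotides. Their positions follow the annotation in the scanner files, on mouse build mm9 and the minus strand in each case. Those files do not say in which exon or untranslated region a probe lies. The Basp1 probe is printed whole, at chr15:25294128-25294187, and 73.3% of its 60 bases are G or C. For Nedd9 (chr13:41405822-41405881) and Cotl1 (chr8:122333137-122333196) the first 30 bases of the probe are printed. Tmsb10 was read by a pair of overlapping probes, at chr6:72907492-72907550 and chr6:72907489-72907548, that differ at 3 bases of their 57-base overlap, and a 30-base stretch of each is printed with the differing bases in capitals.
Basp1 probe: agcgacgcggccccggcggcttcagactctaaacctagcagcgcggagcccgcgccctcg
Nedd9 probe: ttcctttatgaccaactcaagaaatatagt
Cotl1 probe: atgctgcaccgggctgggctgtgaggacca
Tmsb10 probe 1: agccacctgcAagatggaCgCgagccacaa
Tmsb10 probe 2: agccacctgcGagatggaTgTgagccacaa

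**Figure D1:**
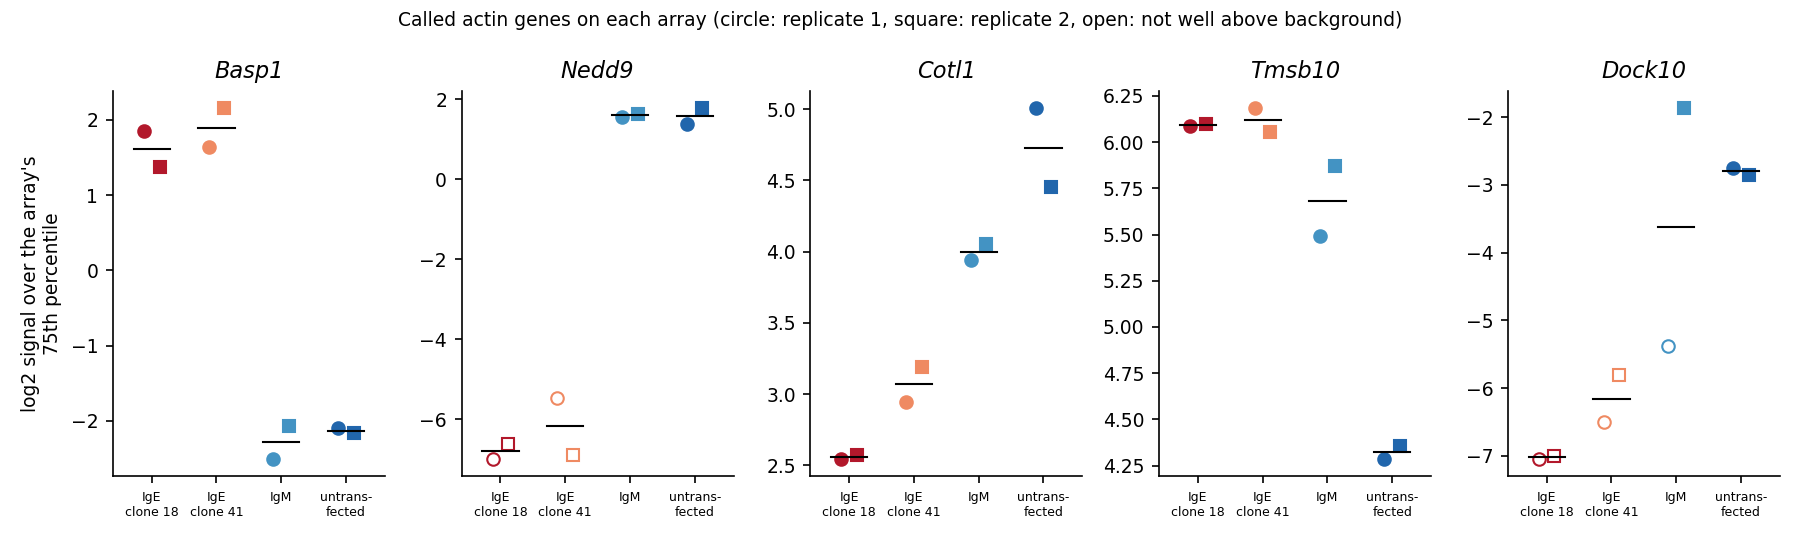
Scaled log2 signal (y axis) of the 5 called genes on each of the 8 arrays, by line (x axis), each panel on its own y scale; circles are replicate 1, squares replicate 2, bars the mean of the line, and open symbols arrays on which the probe was not well above background. The 4 IgE arrays lie above all control arrays for Basp1 and Tmsb10 and below them for Nedd9, Cotl1 and Dock10, and the 2 control lines stand apart from each other for Tmsb10.

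The largest changes were in the 2 adaptor and membrane proteins of the list, and they ran in opposite directions. Each array measured the RNA of a whole culture, so fewer cells with a transcript and less of it per cell cannot be told apart here. Basp1 encodes a protein that sits on the inner face of the membrane through a lipid anchor and binds the phosphoinositides that regulate actin. Arrays read 1.85 and 1.37 in clone 18 and 1.63 and 2.16 in clone 41, against -2.50 and -2.06 in IgM cells and -2.10 and -2.16 in untransfected cells. The lowest IgE array was far above the highest control array, and the control lines could not be told from each other (-0.15 for IgM over untransfected, adjusted p = 0.875). The mean was 1.75 ± 0.33 in IgE lines and -2.21 ± 0.20 in control lines (SD, n = 4 arrays each). The change was 3.96 ± 0.19 (SE) on the log2 scale, or 15.5-fold, with an adjusted p of 5.1e-05 in limma. Against each control in turn it was between 3.74 and 4.18, and it passed the threshold in all 4 pairs of an IgE clone and a control line.

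Nedd9 encodes a scaffold of the Cas family that passes signals from integrins and antigen receptors to the actin machinery and takes part in lymphocyte migration. On the same scale its probe read -6.98 and -6.60 in clone 18 and -5.46 and -6.88 in clone 41, against 1.55 and 1.65 in IgM cells and 1.37 and 1.79 in untransfected cells. No IgE array was well above background, and all 4 control arrays were, within a narrow range. The measured means were -6.48 ± 0.70 in IgE lines and 1.59 ± 0.17 in control lines (SD, n = 4 arrays each). Because the IgE side has only a bound, the change is given as at least 78.3-fold lower in IgE lines. The limma adjusted p of 2.26e-05 belongs to the fitted change of -8.07, which uses IgE readings not above background. It does not test the bound. The bound sets the mean of the control arrays against the dimmest signal that still counted as well above background on each IgE array. The fitted change was -4.40 on the log2 scale after normexp background correction and -5.18 from the authors' deposited table, both smaller than the bound. The bound is therefore that of the processing used here and not of these alternatives. Over the 4 pairs of lines the bound ran from 75.5-fold to 81.2-fold lower, and the fitted change was called in each.

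Basp1 and Nedd9 were the 2 members called the same way in all 4 pairs of an IgE clone and a control line, where 2.93% of all genes were. The 4 pairs share arrays and are not independent of each other. Nedd9 passed the filter on dim probes through the control lines alone, where it was high. On the chromosome, none of the 5 tested genes on either side of Basp1 was called, and 1 of the 10 around Nedd9 was, a gene model named Gm10790 that was lower.

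Among the 10 genes for monomer binding, severing, capping and their control by phosphorylation, 1 rose and 1 fell. Cotl1 encodes coactosin-like protein, which binds actin filaments. Its scaled log2 signal was 2.55 and 2.58 in clone 18 and 2.95 and 3.19 in clone 41, against 3.94 and 4.05 in IgM cells and 5.01 and 4.45 in untransfected cells. All IgE arrays lay below all control arrays, and the lines stood in the order clone 18, clone 41, IgM, untransfected from low to high. The neighbours at the low end and at the high end of that order did not pass the test (0.51 for clone 41 over clone 18, adjusted p = 0.874, and -0.73 for IgM over untransfected, adjusted p = 0.199). Over all IgE and control arrays Cotl1 fell by 1.55 ± 0.16 (SE) on the log2 scale, a 2.92-fold difference (limma adjusted p = 0.00127). The means were 2.82 ± 0.31 in IgE lines and 4.36 ± 0.48 in control lines (SD, n = 4 arrays each).

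By pairs, Cotl1 fell by 2.17 in clone 18 and by 1.66 in clone 41 against untransfected cells, and by 1.44 in clone 18 against IgM cells. In clone 41 against IgM cells the value was -0.93, with an adjusted p of 0.0507, and it was not called. The call in clone 18 against IgM cells was lost when either array of clone 18 or either array of the IgM line was left out (largest adjusted p 0.0744). The call in clone 41 against untransfected cells was lost without replicate 1 of clone 41 (adjusted p = 0.069). None of the 10 tested genes around Cotl1 on chromosome 8 was called.

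Tmsb10 encodes thymosin beta-10, a small peptide that holds actin monomers out of filaments. Its scaled log2 signal was 6.09 and 6.10 in clone 18 and 6.18 and 6.06 in clone 41, against 5.49 and 5.87 in IgM cells and 4.29 and 4.36 in untransfected cells. The IgE arrays were the highest and lay close together, and most of the distance lay between the untransfected arrays and the rest. IgM cells exceeded untransfected cells by 1.36 ± 0.18 (SE) on the log2 scale, with a limma adjusted p of 0.0159. This was the single member called between the 2 control lines, against 2.03% of all genes, and it was lost without either array of clone 18 or without replicate 2 of the IgM line (largest adjusted p 0.0796). Those clone 18 arrays enter only through the shared estimate of the spread.

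Over all arrays Tmsb10 rose by 1.10 ± 0.13 (SE) in the IgE lines, or 2.15-fold, with an adjusted p of 0.00218. Against untransfected cells it rose by 1.77 in clone 18 and by 1.80 in clone 41. Against IgM cells the values were 0.41 in clone 18 (adjusted p = 0.212) and 0.44 in clone 41 (adjusted p = 0.209), and neither was called. The second, overlapping probe gave 1.07 for the IgE lines over the control lines and 1.48 for IgM over untransfected cells. The call over all arrays was lost when the line was a random block (adjusted p = 0.0716), and it fell short of 2-fold without scaling between arrays (0.77).

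**Figure D2:**
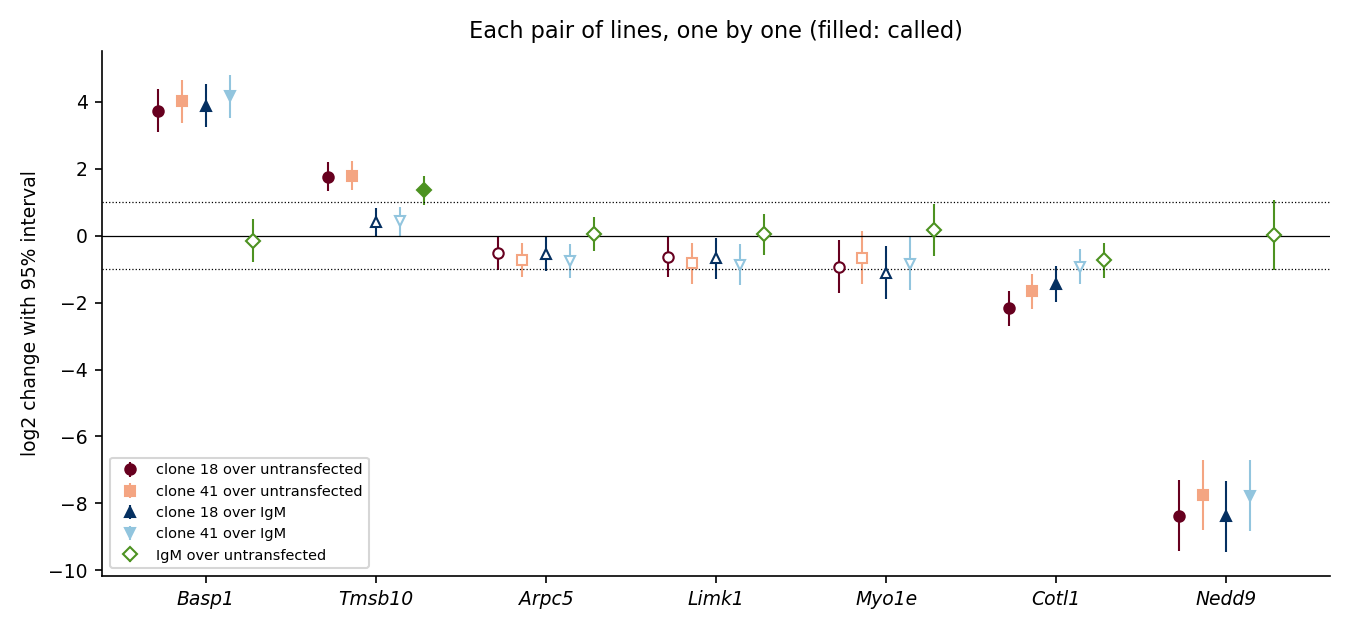
Log2 change with its 95% interval (y axis) in each pair of lines for the 7 genes whose adjusted p was under 0.05 in the IgE lines over the control lines, other than Dock10 (x axis); filled symbols are called and dotted lines mark a 2-fold change. Basp1 and Nedd9 are called in all 4 pairs of an IgE clone and a control line, the fitted values for Nedd9 are not bounds, and Tmsb10 is called for both clones over untransfected cells and for IgM over untransfected cells.

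The most abundant members of this machinery could not be ranked by line because their spots reached the ceiling of the scanner. Actb (beta-actin), Tmsb4x (thymosin beta-4), Cfl1 (cofilin, which severs filaments) and Arpc2 (a subunit of the Arp2/3 complex) were saturated on all 8 arrays, and no fold is given for them. For Tmsb4x the scaled log2 signal was 7.13 and 7.24 in clone 18 and 7.13 and 7.13 in clone 41, against 6.71 and 6.87 in IgM cells and 6.60 and 6.82 in untransfected cells. Every IgE array was above every control array on this scale. The same held for Actb, Cfl1 and Arpc2, with scaled differences between means of 0.36 to 0.43 for these 4 genes. Without scaling, their differences were 0.03 to 0.10. These values are those of the brightest probe of each gene. Over all kept probes the scaled difference ran from 0.14 to 0.43 for the 3 of Cfl1 and from 0.16 to 0.40 for the 2 of Tmsb4x, and none was called. The log2 of the 75th percentile subtracted from each array averaged 8.95 on IgE arrays and 9.28 on control arrays, a difference of -0.33.

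Actg1 (gamma-actin) was saturated on 5 arrays, Coro1a (coronin 1A, an actin binding protein of blood cells) on 4 and Actr3 (a core subunit of the Arp2/3 complex) on 1. None of these was called. In all, 8 of the 43 members had every IgE array above every control array, where 14.4% of all genes did, and 6 of those 8 had at least 1 saturated array. The remaining pair was Basp1 and Tmsb10. A further 6 members had every IgE array below every control array, where 10.6% of all genes did. These were Nedd9, Cotl1, Dock10, Limk1, Arpc5 and Myo1e.

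Limk1, Arpc5 and Myo1e passed the adjusted p but not the 2-fold requirement. Limk1 encodes the kinase that switches cofilin off, and its scaled log2 signal was 1.26 and 0.90 in clone 18 and 0.94 and 0.82 in clone 41, against 1.47 and 2.04 in IgM cells and 1.88 and 1.53 in untransfected cells. The groups did not overlap, and the lower IgM array was close to the highest IgE array. The change was -0.75 ± 0.18 (SE) on the log2 scale (adjusted p = 0.0339). Ssh2, the slingshot phosphatase that reverses the action of Limk1, had a change of -0.25 (adjusted p = 0.334) with overlapping groups.

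The remaining genes of this group did not pass the test. Pfn1 (profilin, which feeds monomers to growing ends) had a change of 0.42 with a 95% interval of -0.35 to 1.19. Gsn (gelsolin, which severs and caps filaments) had a change of 0.27 with an interval of -0.61 to 1.15, and its arrays ranged from -2.36 to -0.55 in IgE lines and from -2.22 to -1.07 in control lines. These intervals reach past 2-fold, so a change of that size was not excluded at this number of arrays. Capg, which caps filament ends, stood at 0.23 and 0.64 in IgM cells, against 1.47 and 2.72 in untransfected cells. IgM over untransfected was -1.65 on the log2 scale (adjusted p = 0.116), and without replicate 1 of the untransfected line it passed the test. The IgE arrays of Capg read 1.54 and 1.33 in clone 18 and 0.92 and 1.19 in clone 41. All 4 lay above both IgM arrays, and all but the 1.54 of clone 18 lay below both untransfected arrays.

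None of the 10 genes of the Arp2/3 complex and its activators was called. Arpc5, a subunit of the complex, was the one with the largest difference. Its scaled log2 signal was 4.57 and 4.75 in clone 18 and 4.57 and 4.33 in clone 41, against 5.34 and 5.09 in IgM cells and 5.38 and 4.96 in untransfected cells. The groups did not overlap, and the change was -0.64 ± 0.15 (SE) with an adjusted p of 0.0311. Its second probe gave -0.49 with an adjusted p of 0.108. The other subunits measured below saturation were Actr2, Arpc1b, Arpc3 and Arpc4, with changes of 0.25, 0.22, -0.15 and -0.00 and overlapping groups. The activators were equally level: Was, its partner Wipf1, and Wasf2, which drives branching at the cell edge, had changes of -0.14, 0.01 and -0.04. All 10 genes were well above background on all 8 arrays.

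Among the 10 small GTPases, DOCK exchange factors and ROCK kinases, Dock10 was called. The switches Rac1, Rac2, Rhoa, Rhoh and Cdc42 had changes between -0.07 and 0.16. For Rac1 the 95% interval was -0.27 to 0.23 and for Rhoa it was -0.26 to 0.28, well inside a 2-fold change. Rhoh, an atypical GTPase of blood cells that does not cycle like the others, read 1.03 and 0.65 in clone 18 and 1.08 and 1.00 in clone 41, against 1.17 and 1.41 in IgM cells and 0.63 and 0.60 in untransfected cells. The IgE arrays lay between those of the 2 control lines. Dock2, the main activator of Rac in lymphocytes, had a change of -0.00 and Dock8, an activator of Cdc42, one of -0.09. Rock1 and Rock2, kinases that act below Rhoa to drive contraction, had changes of 0.21 and -0.13.

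Dock10 encodes an exchange factor for Cdc42 and Rac, and it was dim. The scaled log2 signal of its brightest probe was -7.04 and -7.00 in clone 18 and -6.50 and -5.81 in clone 41, against -5.38 and -1.87 in IgM cells and -2.75 and -2.86 in untransfected cells. The IgM arrays disagreed with each other by 3.51. The probe was well above background on replicate 2 of the IgM line and on both untransfected arrays only. Dock10 thus passed the filter on dim probes through the untransfected line alone. The means were -6.59 ± 0.58 in IgE lines and -3.21 ± 1.51 in control lines (SD, n = 4 arrays each). They gave a bound of at least 2.80-fold lower in IgE lines. The limma adjusted p of 0.0206 belongs to the fitted change and does not test the bound. The control mean includes the IgM array that was not well above background, and the fitted change of -3.37 on the log2 scale moved to -4.25 without that array (adjusted p = 0.000257) and to -2.49 without the other IgM array (adjusted p = 0.00169). It was -0.83 after normexp correction (adjusted p = 0.0926) and -1.35 from the authors' deposited table (adjusted p = 0.148), both smaller than the bound, so the bound is that of the processing used here and not of these 2 alternatives. The call was lost in 8 of 20 alternatives, among them leaving out any 1 of the 4 IgE arrays (largest adjusted p without an IgE array 0.0791). A second kept probe, in the same gene, read -6.98 and -7.13 in IgM cells against -2.52 and -3.29 in untransfected cells, so the 2 probes agreed for the untransfected line and not for the IgM line. The remaining probe, not kept, was well above background on replicate 1 of the IgM line alone.

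The genes that extend, bundle or anchor filaments moved little. Vasp and Evl, which lengthen filaments at their growing ends, had changes of -0.28 and 0.01. Lcp1, the filament bundler L-plastin, had a change of -0.16. Ezr and Msn, ezrin and moesin, tie filaments to the membrane and had changes of 0.08 and 0.12. All of these groups overlapped. Their paralog Rdx read between -7.14 and -6.55 with both of its probes on all arrays and was not detectable.

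Of the 4 myosins, Myo1e came closest to a call. It is a class I myosin that links membrane to actin, and its scaled log2 signal was 2.15 and 2.31 in clone 18 and 2.53 and 2.46 in clone 41, against 3.51 and 3.14 in IgM cells and 3.66 and 2.65 in untransfected cells. Replicate 2 of the untransfected line was close to the IgE arrays, and the other control arrays were higher. The change was -0.88 ± 0.23 (SE) with an adjusted p of 0.0456. Without that untransfected array it reached 2-fold and was called. Myh9, the heavy chain of the main contractile myosin of non-muscle cells, had a change of 0.05 with a 95% interval of -0.20 to 0.30. Myo9b, a myosin with a GTPase-activating domain, had a change of -0.06. Myo1g, a second class I myosin of blood cells, had a change of 0.33 with an interval of -0.41 to 1.07.

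**Figure D3:**
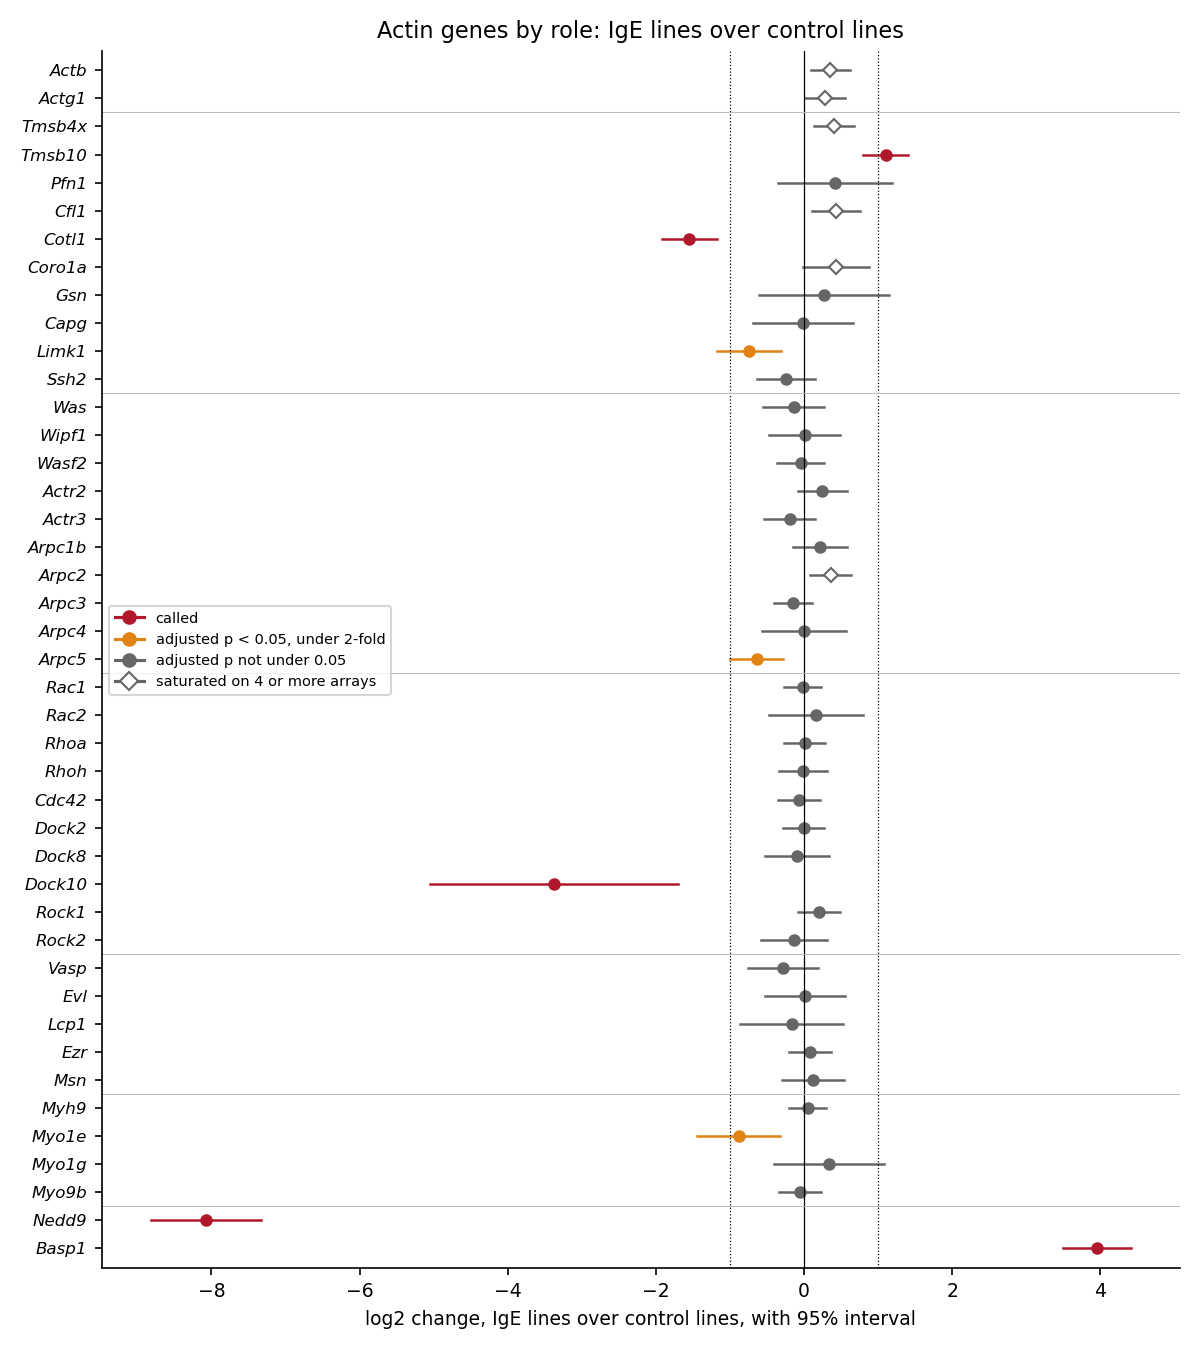
Log2 change of the IgE lines over the control lines with its 95% interval (x axis) for the 43 genes tested (y axis), grouped by role with grey lines between groups; dotted lines mark a 2-fold change, open diamonds are genes saturated on 4 or more arrays, and the fitted values of Nedd9 and Dock10 are not bounds. Most genes sit close to 0, 5 are called, and Limk1, Arpc5 and Myo1e pass the adjusted p with a change under 2-fold.

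Of the 38 members not called in the IgE lines over the control lines, 33 had a 95% interval that stayed within a 2-fold change. The exceptions were Pfn1, Gsn, Limk1, Myo1e and Myo1g. The 33 include the 7 members with a saturated array, among them Actb, Tmsb4x, Cfl1 and Arpc2, saturated on all 8. For these 7 the scanner's ceiling limits the difference and the spread that can show, so a narrow interval does not bound the change. Members with more than 1 kept probe numbered 22, and in each of them all kept probes had the same call. Only for Tmsb10 and Dock10 was that a called change, and in the rest no probe was called. The same call did not mean the same size for Dock10, whose kept probes gave -3.37 and -1.72. By line, 5 members were called in clone 18 against untransfected cells (7.69% of all genes), 4 in clone 41 against untransfected cells (5.6%), 3 in clone 18 against IgM cells (9.14%) and 2 in clone 41 against IgM cells (7.39%). Between clone 41 and clone 18 no member was called in limma or had an unadjusted p under 0.05, where 0.355% of all genes were called.

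By the median over members, the arrays of the untransfected line differed more from each other than those of the other lines. The 2 replicates were over 0.5 apart on the log2 scale for 1 member in clone 18, 7 in clone 41, 4 in IgM cells and 17 in untransfected cells. The median absolute difference between replicates was 0.15 in clone 18, 0.15 in clone 41, 0.19 in IgM cells and 0.41 in untransfected cells. The standard deviation of the difference gave another order, with 0.21 in clone 18, 0.39 in clone 41, 0.63 in IgM cells and 0.58 in untransfected cells, and the IgM value includes the 3.51 of Dock10. The members farthest apart in the untransfected line were Myo1g (1.49 higher in replicate 1), Lcp1 (1.28), Pfn1 (1.25) and Rac2 (1.14), and Capg ran the other way, with a difference of -1.25. For Myo1g, Lcp1 and Rac2 the untransfected pair spanned the values of all 4 IgE arrays, and none of these 5 genes was called in an IgE clone over untransfected cells. Without replicate 1 of the untransfected line, Coro1a, Myo1g and Capg were called in clone 18 against untransfected cells, and Myo1g and Capg in clone 41 against untransfected cells.

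Gamma-actin has 5 probes, of which the bright ones reached the scanner's ceiling. The probe nearest the 3′ end was saturated on 8 arrays, the one at 51 bases on 5 and the one at 1463 bases on 3, while those at 1415 and 1425 bases were saturated on 0. How closely the replicates lie at the bright probes is therefore limited by the ceiling and cannot be set against the spread at the dimmer ones. Probes 0 and 51 bases from the one nearest the 3′ end gave 6.51 and 6.67 on untransfected replicate 1 and 6.65 and 6.52 on untransfected replicate 2. The probe at 1415 bases gave 5.49 on replicate 1 and 3.07 on replicate 2, and the one at 1425 bases gave 4.78 and 2.28. The probe farthest away, at 1463 bases, gave 6.64 and 6.14. The other 6 arrays lay between the untransfected arrays at 1415 and 1425 bases, from 3.72 to 4.56 and from 3.04 to 3.80. Gamma-actin has close relatives and processed pseudogene copies, and signal from these cannot be told apart here. No probe of Actg1 was called in the IgE lines over the control lines, with changes from -0.08 to 0.40.

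**Figure D4:**
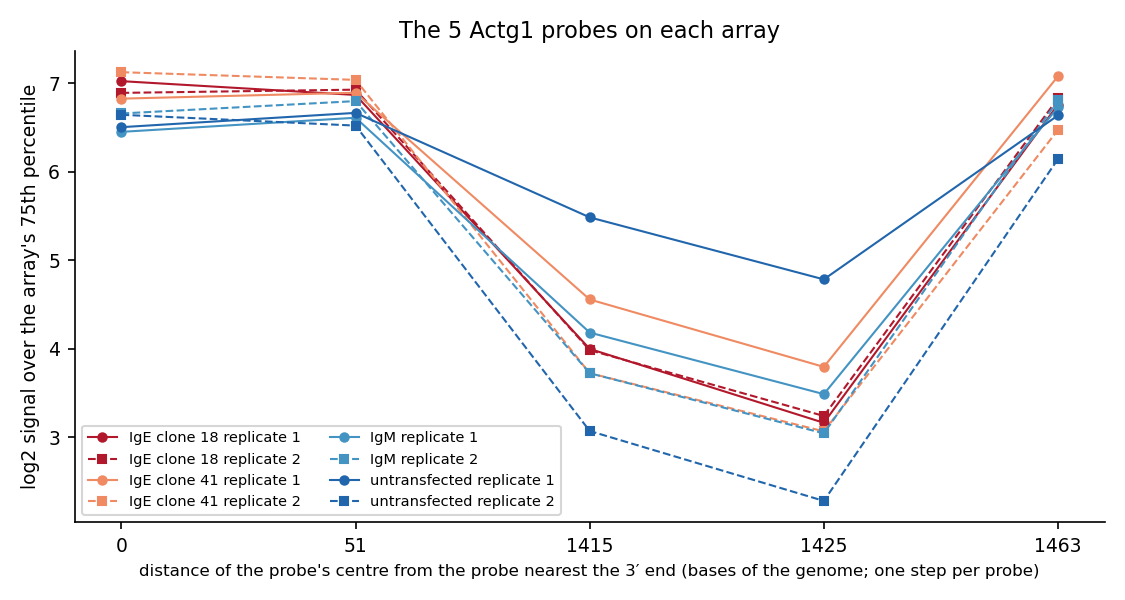
Scaled log2 signal (y axis) of the 5 Actg1 probes on each array, ordered by distance from the probe nearest the 3′ end (x axis, one step per probe); solid lines with circles are replicate 1 and dashed lines with squares replicate 2. The 2 untransfected arrays part at the probes 1415 and 1425 bases away, which were saturated on 0 arrays, and the other 6 arrays lie between them there; the probes at 0, 51 and 1463 bases were saturated on 8, 5 and 3 arrays, which limits the spread that can show.

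A wider list of 117 actin genes, of which 104 were tested, gave the setting for these 44. It had 2 genes called higher and 8 called lower in the IgE lines, beside 94 not called, with a median log2 change of -0.02. The background shares given above (3.4% higher and 5.59% lower) apply here too, and this list was also chosen with earlier results of these data known. None of the 9 formins, which extend unbranched filaments, was called.

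Zyx, which encodes zyxin, a protein of adhesion sites and stress fibres that recruits Ena/VASP proteins, rose most. The scaled log2 signal was -1.20 and -0.60 in clone 18 and 0.28 and -0.04 in clone 41, against -4.46 and -3.82 in IgM cells and -5.17 and -4.52 in untransfected cells. All IgE arrays were far above all control arrays, and replicate 1 of the untransfected line was not well above background. The change was 4.11 ± 0.24 (SE) on the log2 scale (limma adjusted p = 0.000125). Myo1f, a class I myosin, was called higher by 1.70 ± 0.33 (SE) on the log2 scale (adjusted p = 0.0155), and clone 18 read -2.76 and -2.47, clone 41 -3.90 and -4.17, IgM cells -4.74 and -6.09 and untransfected cells -4.26 and -5.04. Of the 4 control arrays only 1, replicate 1 of the untransfected line, was well above background, so the fitted value rests on dim arrays and IgM cells have only a bound. Clone 18 was at least 4.54-fold higher than IgM cells (adjusted p = 0.0126) and 2.03 above untransfected cells (adjusted p = 0.0428). Clone 41 was called against neither, at 0.61 over untransfected cells (adjusted p = 0.489) and a bound of at least 1.69-fold higher than IgM cells (adjusted p = 0.132). Each adjusted p beside a bound is that of the fitted change. The second kept Myo1f probe was not called. It read -3.27 and -3.48 in clone 18 and -4.95 and -4.94 in clone 41, against -3.76 and -7.14 in IgM cells and -1.45 and -7.10 in untransfected cells, so its groups overlapped, with a change of 0.70 (adjusted p = 0.742).

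Enah, the Ena/VASP family member Mena, fell most in the wider list. Its scaled log2 signal was -0.89 and -0.18 in clone 18 and 0.45 and 0.56 in clone 41, against 3.1 and 2.63 in IgM cells and 3.21 and 2.36 in untransfected cells. The groups did not overlap, and the change was -2.84 ± 0.25 (SE) with an adjusted p of 0.000755. Its relatives Vasp and Evl did not pass the test. Ssh3, a slingshot family gene, fell by 2.36 ± 0.13 (adjusted p = 0.000107), and its IgE arrays spanned -2.40 to -1.66, against 0.17 to 0.58 for control arrays. Slingshot phosphatases reactivate cofilin, and Ssh2 was not called.

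Marcks encodes a lipid-anchored protein that, like that of Basp1, binds phosphoinositides at the membrane, and it also binds actin filaments. It fell by 2.10 ± 0.20 (SE) on the log2 scale (adjusted p = 0.000881), with -1.43 and -1.62 in clone 18 and -1.0 and -1.39 in clone 41, against 0.49 and -0.19 in IgM cells and 1.48 and 1.18 in untransfected cells. Cyfip1, a subunit of the complex that holds Wasf2 and related activators, fell by 1.5 ± 0.13 (adjusted p = 0.000627), and the second such subunit gene, Cyfip2, by 1.06. Myo1d, a class I myosin, fell by 1.15 ± 0.21 (adjusted p = 0.0117), with 0.32 and 0.68 in clone 18 and 1.75 and 1.33 in clone 41, against 2.17 and 1.99 in IgM cells and 2.61 and 1.90 in untransfected cells. Myo1d was called in clone 18 against each control line. In clone 41 it was called against neither, at -0.71 over untransfected cells (adjusted p = 0.208) and -0.54 over IgM cells (adjusted p = 0.321). The brightest probe of Arhgap15, which inactivates Rac, fell by 1.13 (adjusted p = 0.00506), and it was called in clone 18 against each control line and in clone 41 against neither. The second Arhgap15 probe measured was not called, with a change of -0.48 (adjusted p = 0.121) and overlapping groups. Cyfip2 was called in 1 of the 4 pairs, clone 18 against IgM cells. Zyx, Enah, Ssh3, Marcks and Cyfip1 were called the same way in all 4 pairs of an IgE clone and a control line.

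**Figure D5:**
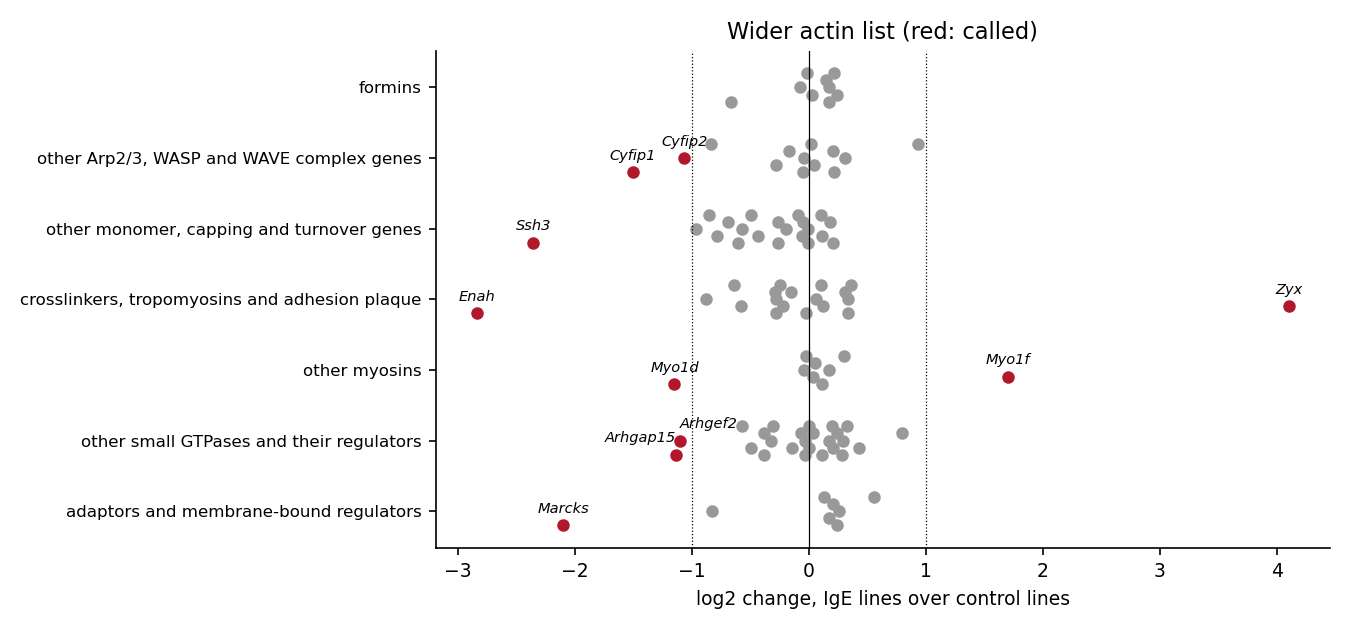
Log2 change of the IgE lines over the control lines (x axis) for the 104 genes tested of the wider actin list, 1 point a gene, by class (y axis; spread within a class is for legibility only); red points are called and dotted lines mark a 2-fold change. Zyx and Myo1f are called higher and 8 genes are called lower.

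Arhgef2, an exchange factor for Rhoa that is released from microtubules, was the single gene of the wider list called between the control lines. It read 5.98 and 6.46 in IgM cells, against 4.80 and 5.10 in untransfected cells, a change of 1.28 (adjusted p = 0.045). In the IgE lines it read 4.31 to 4.61, below both control lines, and the change over the control lines together was -1.10 (adjusted p = 0.00514). Against IgM cells both clones were called, at -1.79 and -1.69 (adjusted p = 0.00426 and 0.00637), and against untransfected cells neither was, at -0.52 and -0.42 (adjusted p = 0.195 and 0.326).

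Promoters of these genes were searched for the CArG box, the site of serum response factor, which drives many actin genes. In the RefSeq table of build GRCm38.p6, 39 of the 44 members were matched, with 53 entries that each span 250 bases before to 50 bases after a start. The box was found, on either strand, in 3 of the 53 entries, those of Actg1, Arpc4 and Myo1e, and in 1.63% of all 32851 entries. The entries of Basp1, Nedd9, Tmsb10 and Dock10 held no match in this window. Actb, Cotl1, Rac1, Rac2 and Rock1 were not matched to an entry, so their promoters were not searched.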

How the data were processed

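Total RNA of 8 samples was labelled with Cy3 and hybridised to Agilent mouse arrays, 1 slide with 1 scan. Per the file headers, Feature Extraction 10.7.3.1 made the deposited intensity values (gProcessedSignal) by subtracting background, with probes placed on mm9. The authors also deposited a value table in log2 units, used as an alternative only. It ranked probes as the median pixel intensity did, its array medians were 6.04 to 6.05, and its normalization is not given in the sources used here.

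Here, the log2 intensity of each array was scaled by its 75th percentile, which ran from 474 to 664 intensity units. Control and outlier spots were not used, and the spots of each probe were averaged. A probe counted as above background when at least 0.5 of its kept spots were. Probes above background on both arrays of any line were kept (29140 of 55681 probes). The probe with the highest mean stood for each gene, which gave 19973 genes, 17358 of them above background on all arrays. A fit with 1 mean per line (limma 3.58.1 in R 4.3.3) gave 7 two-sided contrasts, with Benjamini-Hochberg adjustment over all genes. The number of arrays limits the precision. The slide column cannot be told apart from the line, and same-numbered arrays share a slide row. A fit of simulated arrays with known changes in the IgE lines was also run. The simulated lines did not differ otherwise, and the outcome is not given here.

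Results for some genes are not reported here. Members and lists were chosen with earlier results of these data known. Per-array values are given for members called in any contrast or past the adjusted p, others by range with examples, and from the wider list up to 6 genes per direction. Arhgap15, Cyfip2 and Arhgef2 were named after their values were seen. Promoters, chromosomal neighbours, replicate summaries and the unscaled alternative were also added after seeing the data.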

Additional observations from a re-analysis of the deposited data

Results flagged for a closer look

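In 6 of the 86 groups of 4 arrays examined, 1 array stood apart from the other three by Dixon's test, where chance gives about 1 in 20. The scaled log2 signal of Tmsb4x, saturated on all arrays, was 7.24 on replicate 2 of clone 18, above the other IgE arrays at 7.13. Pfn1 was 4.69 on replicate 2 of clone 41, below the other IgE arrays at 5.43 to 5.54. Evl was 4.84 on replicate 1 of clone 41, above the others at 3.85 to 4.01, and Myo1g was 5.66 on that array, above the others at 5.39 to 5.41. Among the control arrays, Coro1a was 5.99 on replicate 2 of the untransfected line, below the others at 6.75 to 6.80. Coro1a was saturated on 4 of all arrays, and the scanner's ceiling limits the spread that can show. Wasf2 was 5.82 on replicate 1 of that line, above the others at 5.38 to 5.41. None of these genes was called in the IgE lines over the control lines.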

How the results depend on the processing

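Basp1, Nedd9 and Cotl1 kept their direction and their call in the IgE lines over the control lines under every alternative that tested them, with adjusted p-values of at most 0.00154, 0.000504 and 0.0106. Dock10 kept its direction and lost its call in 8 of 20 alternatives (adjusted p from 0.000257 to 0.148), among them quantile normalization, normexp correction, the authors' deposited log2 table and no filter on dim probes. Tmsb10 lost its call in 2 of 21 (adjusted p from 0.000209 to 0.0716). Of 169 counts of called members under alternatives, 159 stayed within 1.5 times. These include clone 41 over clone 18, where no member was called under any setting. A level count can also hide a change of genes. Without scaling, the IgE lines over the control lines gained Limk1 and Myo1e and lost Tmsb10, and that count is among the 159. With probes above background on all arrays, which leaves out Nedd9, 3 members were called in the IgE lines over the control lines, 3 in clone 18 over untransfected cells, 1 in clone 41 over IgM cells and 1 in all 4 pairs. With the adjusted p alone, 8 members were called in the IgE lines over the control lines. Without scaling, added after seeing the data, 4 were called in clone 41 over IgM cells, and the median change of all genes was -0.29. With no filter on dim probes 0 were called in IgM over untransfected cells. Leaving out 1 array at a time, with a lone array assumed to vary like those of the other lines, gave 4 to 6 members for the IgE lines over the control lines, 4 to 7 for clone 18 and 3 to 6 for clone 41 over untransfected cells, 2 to 4 for clone 18 and 2 to 3 for clone 41 over IgM cells, 0 to 2 for IgM over untransfected cells, 0 for clone 41 over clone 18, and 2 to 3 in all 4 pairs. The wider list had 10 genes called, 18 with the adjusted p alone and 16 without scaling. With the replicate number as a block, 5 members were called in the IgE lines over the control lines, and no count for members changed; same-numbered arrays of different lines deviated with correlations of -0.02 to 0.32, so the numbers were not taken to pair the samples. The causes of these shifts were not tested, other than genes or arrays left out by construction.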
